A study of Homo sapiens with 12 samples.

Results

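MicroRNA host genes are genes whose transcripts carry microRNA hairpins, in an exon or in an intron, and most of them make long noncoding RNAs (lncRNAs). The genes described here were those with a GENCODE symbol that starts with MIR and ends with HG, 84 of the 61533 genes in the deposited tables. Expected counts of their 1369 transcripts were summed per gene and compared among 3 human cell lines with 4 total RNA libraries each. T1074 is an ovarian epithelial line immortalized with SV-40 and grown in Prigrow I medium, and PEO-4 is a high-grade serous ovarian cancer line grown in RPMI 1640. SKOV-3 is an ovarian cancer line grown in McCoy's 5A. The labels call it a serous cystadenocarcinoma, whereas the paper that reported these data describes it as clear cell carcinoma. All lines received fetal bovine serum and penicillin-streptomycin, no treatment is given, the genotype of each is wild type in the labels, and each condition is 1 line, so that line, medium and immortalization cannot be told apart. Nothing in the sources says that the 4 replicates of a line came from separate cultures, and the spread behind each p-value may therefore be technical.

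A microRNA starts as a hairpin within a longer primary transcript. The nuclear Microprocessor, made of DROSHA and DGCR8, cuts the hairpin out, exportin-5 (XPO5) carries it to the cytoplasm, DICER1 trims it to a duplex of about the mature length, and an Argonaute protein such as AGO2 holds a strand and uses its seed, bases 2 to 8, to find target messages. The host transcript is what total RNA libraries measure, and its level need not be the level of the mature microRNA. In ovarian tumors, let-7, miR-34a, miR-31, the miR-200 and miR-205 families and the cluster encoded in MIR17HG are among the best studied.

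By position, 110 hairpins of RefSeq (GRCh38.p14) lay inside 65 of the 84 genes on the same strand, 44 of them wholly in an exon, 10 partly in an exon and 56 in introns. They give 177 mature sequences, 129 of them from genes that entered the test below, with 108 different seeds, of which 5 were shared by at least 2 host genes. The let-7 seed was the most widely shared, with 6 hosts. Its matures are shown because their hosts moved in different directions; capitals mark the seed, positions are those of the mature sequence, and exon or intron is that of its hairpin in GENCODE 44. The let-7c hairpin lies in an intron of 86 MIR99AHG transcripts in the deposited tables and in an exon of 0. MIRLET7A1HG holds let-7a, let-7f and let-7d, MIRLET7BHG holds let-7a and let-7b, MIRLET7IHG holds let-7i, MIR99AHG holds let-7c and MIR100HG holds a copy of let-7a.
hsa-let-7a-5p: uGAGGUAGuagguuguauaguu (chr11:122146568-122146589, minus strand, intron of MIR100HG and chr9:94175962-94175983, plus strand, exon of MIRLET7A1HG and chr22:46112752-46112773, plus strand, exon of MIRLET7BHG)
hsa-let-7b-5p: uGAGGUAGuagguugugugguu (chr22:46113691-46113712, plus strand, exon of MIRLET7BHG)
hsa-let-7c-5p: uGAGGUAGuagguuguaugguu (chr21:16539838-16539859, plus strand, exon of MIR99AHG)
hsa-let-7d-5p: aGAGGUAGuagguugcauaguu (chr9:94178841-94178862, plus strand, exon of MIRLET7A1HG)
hsa-let-7f-5p: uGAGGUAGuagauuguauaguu (chr9:94176353-94176374, plus strand, exon of MIRLET7A1HG)
hsa-let-7i-5p: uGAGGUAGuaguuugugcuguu (chr12:62603691-62603712, plus strand, intron of MIRLET7IHG)
MIR99AHG and MIR100HG also carry a pair of microRNAs with another common seed.
hsa-miR-99a-5p: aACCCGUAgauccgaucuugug (chr21:16539101-16539122, plus strand, intron of MIR99AHG)
hsa-miR-100-5p: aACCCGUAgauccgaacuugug (chr11:122152275-122152296, minus strand, intron of MIR100HG)

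The polycistronic hosts MIR23AHG and MIR17HG have their hairpins in exons. Their main matures are shown because both hosts were highest in PEO-4. MIR23AHG yields miR-23a, miR-27a and miR-24, each with its own seed, whereas the 6 matures of MIR17HG shown here fall into 4 seeds.
hsa-miR-23a-3p: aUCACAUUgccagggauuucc (chr19:13836595-13836615, minus strand, exon of MIR23AHG)
hsa-miR-27a-3p: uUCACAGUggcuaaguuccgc (chr19:13836447-13836467, minus strand, exon of MIR23AHG)
hsa-miR-24-3p: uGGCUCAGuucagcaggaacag (chr19:13836289-13836310, minus strand, exon of MIR23AHG)
hsa-miR-17-5p: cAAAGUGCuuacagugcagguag (chr13:91350618-91350640, plus strand, exon of MIR17HG)
hsa-miR-20a-5p: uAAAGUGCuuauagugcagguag (chr13:91351072-91351094, plus strand, exon of MIR17HG)
hsa-miR-18a-5p: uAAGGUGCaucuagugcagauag (chr13:91350756-91350778, plus strand, exon of MIR17HG)
hsa-miR-19a-3p: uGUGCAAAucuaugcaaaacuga (chr13:91350939-91350961, plus strand, exon of MIR17HG)
hsa-miR-19b-3p: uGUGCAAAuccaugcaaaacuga (chr13:91351245-91351267, plus strand, exon of MIR17HG)
hsa-miR-92a-3p: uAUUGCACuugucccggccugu (chr13:91351361-91351382, plus strand, exon of MIR17HG)

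The next set belongs to hosts that were at or near 0 in at least 1 of the 3 lines (MIR31HG, MIR205HG, MIR200CHG, MIR34AHG, MIR646HG, MIR137HG and MIR503HG) and to MIR193BHG, which had the largest rise from T1074 to SKOV-3 among the tested hosts with counts in all 12 libraries. The seeds of miR-200c and miR-141 come from a single short host, and miR-193b and miR-365a from another.
hsa-miR-31-5p: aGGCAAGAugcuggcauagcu (chr9:21512158-21512178, minus strand, intron of MIR31HG)
hsa-miR-205-5p: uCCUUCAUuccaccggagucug (chr1:209432166-209432187, plus strand, partly exon of MIR205HG)
hsa-miR-200c-3p: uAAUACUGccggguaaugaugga (chr12:6963742-6963764, plus strand, intron of MIR200CHG)
hsa-miR-141-3p: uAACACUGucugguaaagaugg (chr12:6964155-6964176, plus strand, intron of MIR200CHG)
hsa-miR-34a-5p: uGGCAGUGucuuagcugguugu (chr1:9151735-9151756, minus strand, exon of MIR34AHG)
hsa-miR-646: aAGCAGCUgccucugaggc (chr20:60308534-60308552, plus strand, intron of MIR646HG)
hsa-miR-137-3p: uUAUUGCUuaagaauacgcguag (chr1:98046091-98046113, minus strand, exon of MIR137HG)
hsa-miR-503-5p: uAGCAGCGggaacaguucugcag (chrX:134546371-134546393, minus strand, partly exon of MIR503HG)
hsa-miR-193b-3p: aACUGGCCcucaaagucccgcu (chr16:14304017-14304038, plus strand, intron of MIR193BHG)
hsa-miR-365a-3p: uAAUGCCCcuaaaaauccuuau (chr16:14309340-14309361, plus strand, intron of MIR193BHG)

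Library totals ranged from 19780836 to 55739060 expected counts. T1074 replicate 1 stood apart, with the lowest total and a share of rRNA and rDNA-like counts of 19.5%, where the other 11 libraries had 0.0809% to 6.13%. The labelled lines were checked with marker genes. Epithelial markers (EPCAM, CDH1, KRT8, KRT18, KRT19) summed to between 1902 and 2877 counts scaled to library totals adjusted by TMM factors (CPM) in the PEO-4 libraries, above T1074 (620 to 1713) and SKOV-3 (606 to 1052), but EPCAM, an epithelial adhesion protein, was at only 0.0964 ± 0.0360 CPM in T1074 (SD, n = 4) against 163 ± 4.31 in PEO-4. CDH1, the epithelial cadherin, was at 0.354 ± 0.0828 CPM in T1074 against 148 ± 10.2 in PEO-4. Both were near 0 in the line labelled as epithelial. Mullerian markers (PAX8, WT1, MUC16) summed to at most 37.2 CPM in T1074, between 80.5 and 107 in the SKOV-3 libraries and at least 801 in PEO-4. Mesenchymal markers (VIM, CDH2, COL1A1, PDGFRB) summed to between 3.18 and 4.37 CPM in PEO-4, far below T1074 (869 to 1896) and SKOV-3 (1025 to 2510). Tested singly against T1074, all 4 were lower in PEO-4, whereas 3 were lower and 1 higher in SKOV-3 (median log2 fold change -3.50). Of the 3 Mullerian markers, 3 were higher in PEO-4 than in T1074, and 2 were higher and 1 lower in SKOV-3. Leukocyte markers summed to 0.645 to 16.8 CPM and endothelial markers to 0.602 to 3.21 CPM over the 12 libraries, with 1 of the 3 leukocyte markers at 0 in each cancer line. The part of these differences in the results below was not tested. In bulk RNA, fewer cells that express a gene and less of its RNA per cell cannot be told apart.

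Of the 84 host genes, 46 passed the filter on low counts and were tested among 19898 genes. The other 38 had a line mean of at most 0.132 CPM. Of these, 6 were at 0 in all 12 libraries and 32 had counts in at least 1 library. The summed level of the 84 genes was 217 ± 58.7 CPM in T1074 (SD, n = 4), 308 ± 26.2 in PEO-4 and 244 ± 23.7 in SKOV-3. MIR23AHG alone made 49.6% of that sum in PEO-4, 17.5% in T1074 and 28.0% in SKOV-3, and without it the sums were 179 ± 33.1, 155 ± 7.69 and 176 ± 14.3 CPM. PEO-4 had the highest sum with MIR23AHG and the lowest without it.

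Among the 46 tested genes, 42 differed among the lines, at a background of 90.4% of all genes tested. Against T1074, 15 were higher in PEO-4 (background 36.3%), 16 were lower (background 37.8%) and 15 were not called. For SKOV-3, 9 were higher (background 33.3%), 20 were lower (background 34.5%) and 17 were not called. Between the cancer lines, 21 were higher in PEO-4 (background 38.5%) and 15 were lower (background 36.7%). Most genes differed between these lines. The share of called hosts was 32.6% higher and 34.8% lower in PEO-4, near the background, and 19.6% higher and 43.5% lower in SKOV-3, below and above it. The median log2 fold change of the hosts was 0.02 in PEO-4 and -0.63 in SKOV-3, beside -0.01 and -0.03 over all genes tested. Since nearly all hosts are lncRNAs, the 3334 lncRNA genes tested give a closer background. Of these, 44.7% were higher and 21.4% lower in PEO-4 than in T1074 (median log2 fold change 0.55), 25.5% higher and 30.9% lower in SKOV-3 (median -0.16), and 50.2% higher and 21.7% lower in PEO-4 than in SKOV-3. Without T1074 replicate 1, the counts were 14 higher and 14 lower in PEO-4 and 10 higher and 20 lower in SKOV-3.

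Both comparisons against T1074 use the same 4 T1074 libraries, so their calls are not independent, and the values of each comparison are given side by side for the genes below.

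**Figure D1:**
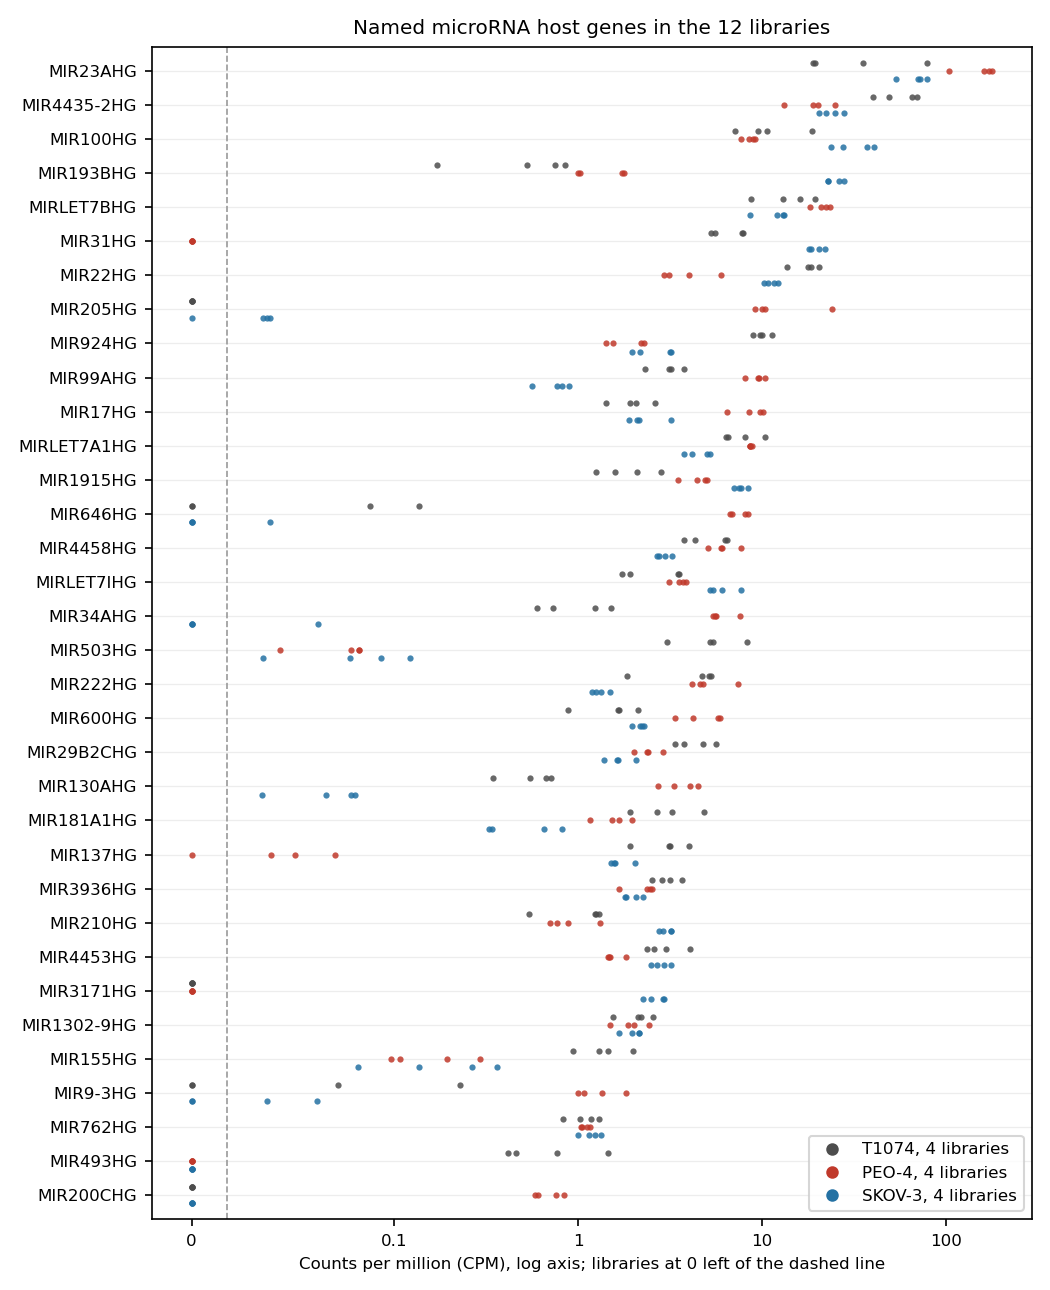
Levels of the 34 named host genes in each library, in CPM on a log axis, ordered by the highest line mean; each point is 1 library (T1074 grey, PEO-4 red, SKOV-3 blue) and libraries at 0 are drawn left of the dashed line. MIR23AHG has the highest level, and MIR31HG, MIR205HG, MIR3171HG, MIR493HG and MIR200CHG are at 0 in all 4 libraries of at least 1 line.

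**Figure D2:**
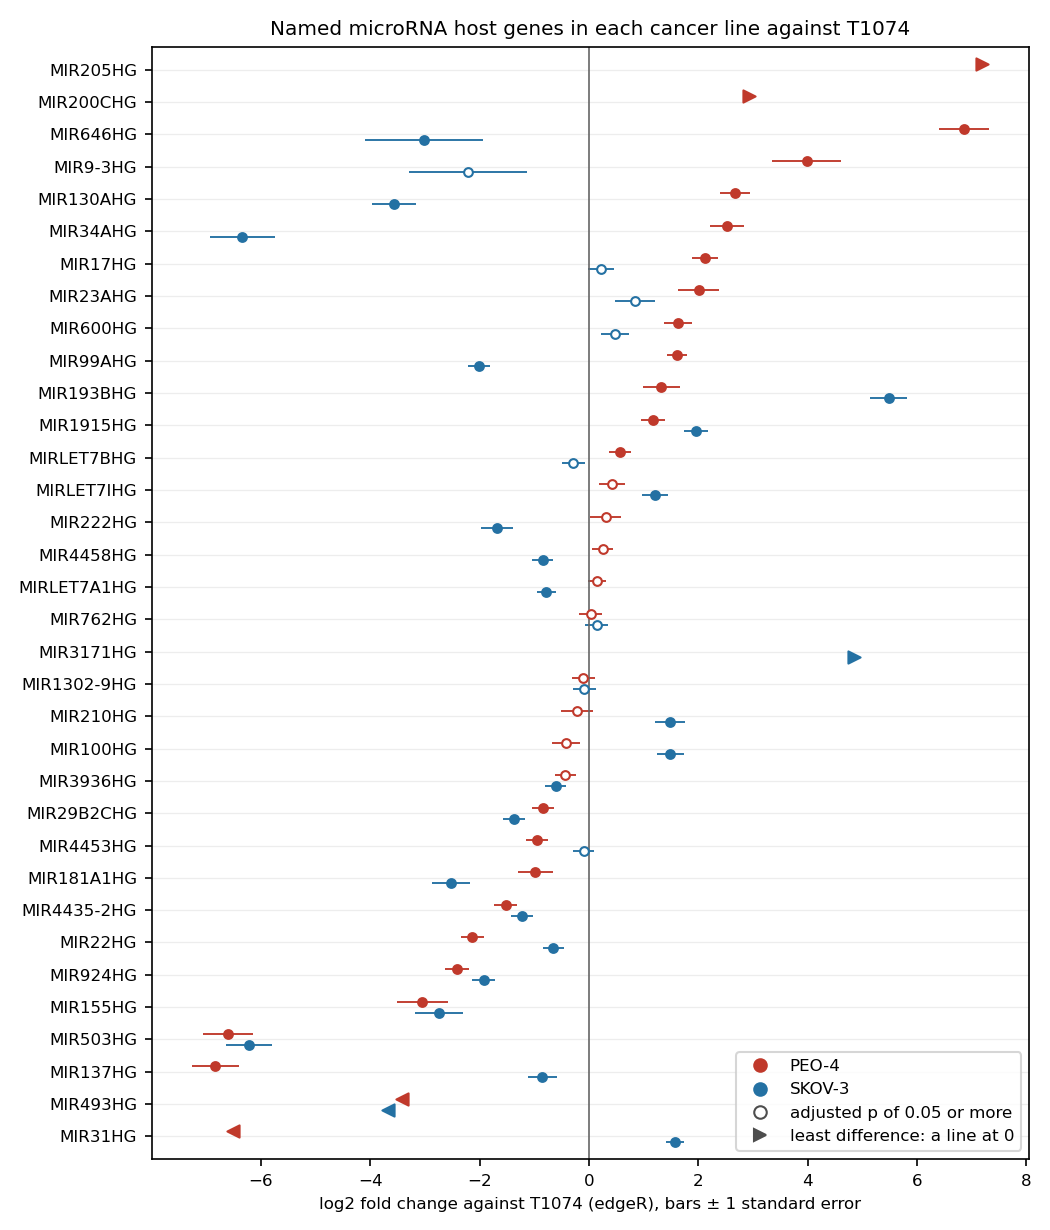
Log2 fold change of each named host gene against T1074 in PEO-4 (red) and SKOV-3 (blue), with bars of 1 standard error; filled circles passed an adjusted p of 0.05 in edgeR and open circles did not. Triangles mark the smallest difference that a floor of 3 counts per library allows where a line was at 0, and MIR3171HG has no mark for PEO-4, where both lines were at 0, nor MIR205HG for SKOV-3.

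The hosts of the let-7 seed did not move together. let-7 microRNAs are known as repressors of growth-promoting messages such as RAS and HMGA2. MIRLET7A1HG, which holds 3 let-7 hairpins (chr9:94166258-94200905, plus strand, GRCh38, as for all positions below), was at 8.08, 6.37, 6.49 and 10.3 CPM in the T1074 libraries, 8.61, 8.64, 8.79 and 8.56 in those of PEO-4 and 4.17, 5.23, 3.77 and 5.00 in those of SKOV-3. All 4 SKOV-3 libraries were below every library of the other lines, and PEO-4 lay within the range of T1074. The fall in SKOV-3 against T1074 passed the test (log2 fold change -0.78 ± 0.17 (SE), edgeR adjusted p = 0.000917). Per length, however, the gene stood at 1.20 ± 0.132 length-corrected units (TPM) in T1074 and 1.20 ± 0.505 in SKOV-3, and with counts rebuilt from TPM the log2 fold change was 0.52 with an edgeR adjusted p of 0.136. Its leading transcript held 82.0% ± 22.6 of the gene's TPM in T1074 and 32.3% ± 10.9 in SKOV-3.

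MIRLET7BHG (chr22:46053869-46113928, plus strand) was at 13.0, 8.71, 16.1 and 19.3 CPM in T1074 compared with 22.1, 18.1, 23.4 and 20.9 in PEO-4 and 13.0, 12.03, 8.61 and 13.1 in SKOV-3. PEO-4 exceeded every SKOV-3 library and overlapped T1074. The rise in PEO-4 over T1074 was small (log2 fold change 0.56 ± 0.21 (SE), edgeR adjusted p = 0.0234) and was lost with an adjusted p of 0.0557 to 0.630 without T1074 replicate 1, without T1074 replicate 2, with scaling by library size alone and with counts rebuilt from TPM. On the TPM scale the order was the reverse, 5.20 ± 0.798 in T1074 and 2.96 ± 0.458 in PEO-4. Transcripts that span the let-7a and let-7b hairpins of this gene made 14.2% ± 6.04 of its TPM in T1074, against 29.0% ± 3.73 in PEO-4 and 17.5% ± 2.52 in SKOV-3, so that their own level was 0.738 ± 0.370, 0.863 ± 0.194 and 0.425 ± 0.0574 TPM.

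MIRLET7IHG (chr12:62602752-62622213, plus strand) went the other way, with 2.68 ± 0.989 CPM in the T1074 libraries, 3.55 ± 0.307 in those of PEO-4 and 6.09 ± 1.12 in those of SKOV-3. Its SKOV-3 libraries lay above all others (log2 fold change 1.20 ± 0.24 (SE), edgeR adjusted p = 0.000437). MIR99AHG (chr21:15928296-16646364, plus strand), whose hairpins are let-7c, miR-99a and miR-125b-2, had 3.11, 2.31, 3.77 and 3.21 CPM in T1074 compared with 9.49, 8.11, 9.65 and 10.4 in PEO-4 and 0.565, 0.769, 0.899 and 0.820 in SKOV-3. The 3 lines did not overlap at any library, with PEO-4 highest and SKOV-3 lowest. It was 3.03-fold higher in PEO-4 than in T1074 (log2 fold change 1.60 ± 0.18 (SE), edgeR adjusted p = 1.89e-06) and lower in SKOV-3 (log2 fold change -2.02 ± 0.20 (SE), edgeR adjusted p = 5.71e-07). The sixth host of this seed, MIR4500HG, stayed under 1 CPM in all lines.

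**Figure D3:**
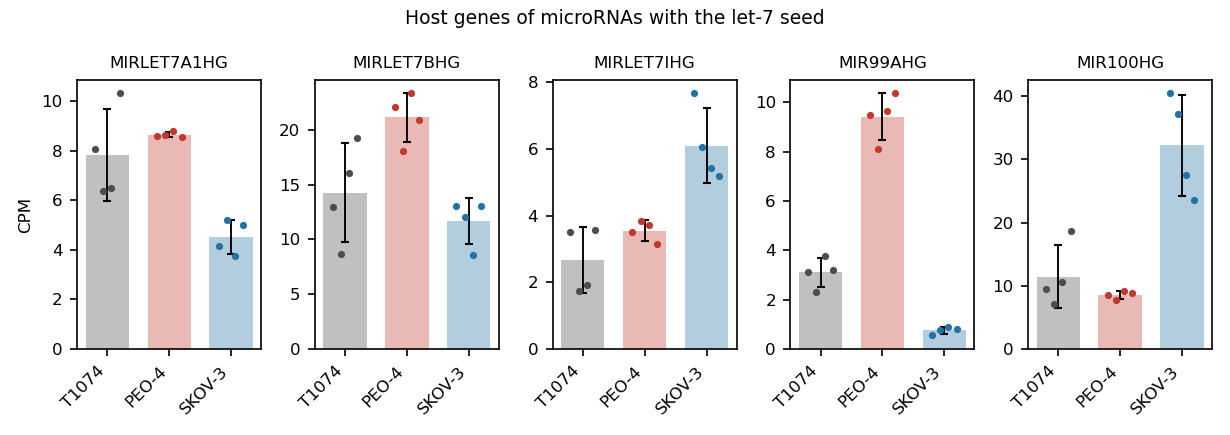
CPM of 5 host genes of the let-7 seed in T1074 (grey), PEO-4 (red) and SKOV-3 (blue); bars are line means, whiskers 1 SD and points the 4 libraries, and each panel has its own axis from 0. MIR99AHG is highest in PEO-4 and lowest in SKOV-3, whereas MIR100HG and MIRLET7IHG are highest in SKOV-3.

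MIR100HG (chr11:122028325-122556721, minus strand), which carries let-7a-2, miR-100, miR-125b-1 and miR-10526 in introns, was at 9.43, 7.15, 10.6 and 18.6 CPM in T1074, against 8.46, 7.72, 9.18 and 8.93 in PEO-4 and 40.5, 37.2, 27.5 and 23.6 in SKOV-3. Every SKOV-3 library was above the others, T1074 replicate 4 being the closest. The rise in SKOV-3 passed the test (log2 fold change 1.49 ± 0.25 (SE), edgeR adjusted p = 0.000101), and PEO-4 against T1074 did not (log2 fold change -0.42 ± 0.25 (SE), edgeR adjusted p = 0.142). MIR99AHG and MIR100HG, which both hold a let-7 hairpin, a miR-125b hairpin and one of miR-99a or miR-100, thus had opposite orders in the cancer lines, with fitted log2 differences of PEO-4 over SKOV-3 of 3.62 and -1.91.

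The transcripts of MIR100HG also differed in what they span. The 24 transcripts that reach across miR-100 and let-7a-2 held between 62.5% and 73.7% of the gene's TPM in the SKOV-3 libraries, against 15.5% to 23.7% in T1074 and 3.61% to 13.3% in PEO-4. Their level was 0.475 ± 0.199 TPM in the T1074 libraries, 0.0775 ± 0.0512 in those of PEO-4 and 3.19 ± 0.546 in those of SKOV-3. The ranges of the 3 lines did not overlap. A further 38 transcripts span miR-125b-1 alone, and those spanning it, alone or with the others, held 84.6% ± 1.83, 81.8% ± 4.39 and 93.0% ± 1.55 of the TPM. These shares rest on how RSEM divided reads among 101 overlapping transcripts and have no test here.

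**Figure D4:**
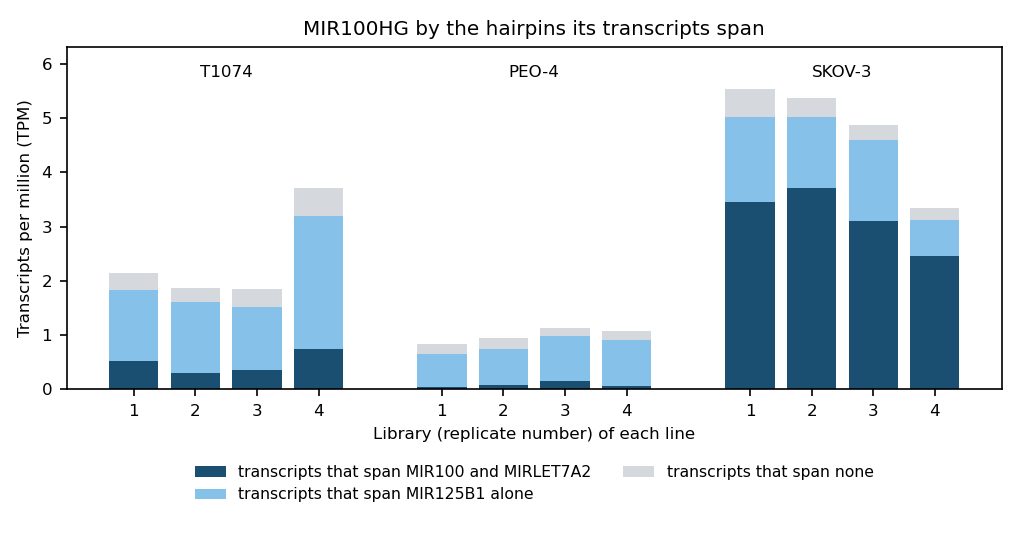
TPM of MIR100HG in each library, stacked by the hairpins its transcripts span: miR-100 and let-7a-2 (dark blue), miR-125b-1 alone (light blue) or none of them (grey). The dark segment is 2.46 to 3.72 TPM in the SKOV-3 libraries and at most 0.740 TPM in the others.

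MIR23AHG (chr19:13823880-13842928, minus strand) drew the most reads of the 84 hosts in both cancer lines. Its microRNAs are known in hypoxia, hematopoiesis and metabolism. It was at 18.9, 19.3, 35.4 and 78.4 CPM in T1074 compared with 171, 159.9, 103 and 177 in PEO-4 and 78.3, 72.1, 53.1 and 69.96 in SKOV-3. All PEO-4 libraries were above all T1074 and SKOV-3 libraries, and T1074 replicate 4 lay at the top of the SKOV-3 range, above the rest of its own line. Against T1074 it was 4.02-fold higher in PEO-4 (log2 fold change 2.00 ± 0.37 (SE), edgeR adjusted p = 0.000218), with a log2 fold change of 2.64 without T1074 replicate 4. SKOV-3 missed the threshold (log2 fold change 0.84 ± 0.36 (SE), edgeR adjusted p = 0.0529) and passed it in 10 of the 23 alternatives, among them the replicate block (log2 fold change 1.00, edgeR adjusted p = 0.0209), limma (1.09), RLE factors (0.89), no filter on low counts (0.93) and the fits without T1074 replicate 4 (1.49, edgeR adjusted p = 0.000131), without SKOV-3 replicate 3 or without any 1 PEO-4 library (0.90 to 0.95). PEO-4 was also above SKOV-3 (log2 fold change 1.16 ± 0.36 (SE), edgeR adjusted p = 0.00993). The gene has 1 transcript of 19049 bases in these tables, so per length it was at 0.887 ± 0.616, 2.16 ± 0.412 and 1.12 ± 0.0751 TPM, below MIR4435-2HG in every line. It shares 2310 exon bases with ZSWIM4 on the opposite strand, which was at 23.0 ± 6.36 CPM in T1074, against 40.6 ± 0.794 in PEO-4 and 17.1 ± 2.05 in SKOV-3. Whether the counting used strand is not stated, so reads of this overlap cannot be assigned with certainty.

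MIR17HG (chr13:91347686-91397592, plus strand), host of the miR-17 to miR-92a cluster known to be induced by MYC and to promote proliferation, followed the same order. It was at 2.06, 1.42, 2.62 and 1.91 CPM in the T1074 libraries, 10.2, 6.42, 8.45 and 9.71 in those of PEO-4 and 3.20, 2.09, 1.88 and 2.13 in those of SKOV-3. PEO-4 stood above all other libraries, and T1074 and SKOV-3 overlapped. The rise in PEO-4 was 4.33-fold (log2 fold change 2.12 ± 0.23 (SE), edgeR adjusted p = 1.32e-06), whereas SKOV-3 gave a log2 fold change of 0.22 against T1074 and lay below PEO-4 (1.90 for PEO-4 minus SKOV-3). Transcripts with the cluster in an exon held 39.3% ± 5.60 of its TPM in T1074 compared with 50.04% ± 4.63 in PEO-4 and 61.7% ± 11.8 in SKOV-3. MCM7, the replication helicase subunit whose introns carry the related miR-106b, miR-93 and miR-25, was highest in T1074, with 403 ± 64.9 CPM in T1074, against 113 ± 17.0 in PEO-4 and 69.1 ± 19.5 in SKOV-3, and was called lower in both cancer lines. A lncRNA without a symbol shares 2639 exon bases with MIR17HG on the opposite strand.

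Both hosts of microRNAs known to maintain epithelial identity were expressed in PEO-4 and were at or near 0 elsewhere. MIR205HG (chr1:209428817-209432848, plus strand), host of miR-205, was at 0 in the 4 T1074 libraries, at 10.3, 10.0, 23.8 and 9.08 CPM in PEO-4 and at 0.0195, 0, 0.0214 and 0.0205 in SKOV-3, where the 3 positive libraries hold 1 count each. PEO-4 replicate 3 was more than 2-fold above the other PEO-4 libraries, and no library of another line came near any of them. With a floor of 3 counts per library for T1074, the gene was at least 145-fold higher in PEO-4 (edgeR adjusted p = 3.68e-08), and over SKOV-3 the ratio of counts was 904 (95% interval 309 to 4388, counting error only, edgeR adjusted p = 2.88e-08). Its nearest tested protein-coding neighbours were PLXNA2, a semaphorin receptor 1184433 bases away, with 14.8 ± 6.84, 4.32 ± 0.855 and 7.14 ± 1.03 CPM, and LAMB3, a laminin subunit 182022 bases away, with 10.5 ± 2.59, 53.2 ± 6.87 and 687 ± 16.9 CPM in T1074, PEO-4 and SKOV-3. LAMB3 was thus highest in SKOV-3, where MIR205HG was near 0.

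MIR200CHG (chr12:6963226-6964447, plus strand), whose only transcript in these tables spans miR-200c and miR-141, repressors of ZEB transcription factors, was at 0.761, 0.603, 0.838 and 0.584 CPM in PEO-4, and the 8 libraries of the other lines held none. At the floor of 3 counts per library, PEO-4 was at least 7.59-fold above T1074 (edgeR adjusted p = 9.56e-06) and at least 11.5-fold above SKOV-3 (edgeR adjusted p = 5.15e-06). On either side, PTPN6, a tyrosine phosphatase 1910 bases away, had 0.157 ± 0.0348 CPM in the T1074 libraries, 16.5 ± 3.06 in those of PEO-4 and 2.17 ± 0.4997 in those of SKOV-3, and PHB2, a prohibitin 880 bases away, had 125 ± 17.5, 221 ± 6.39 and 70.5 ± 1.42. All 3 genes of this short interval were highest in PEO-4, and the neighbours were present in every line. Of the 5 epithelial markers, 3 were higher and 2 not called in PEO-4 against T1074 (median log2 fold change 3.95). In SKOV-3, 3 were higher as well, 1 was lower and 1 was not called (median 1.34). EPCAM and CDH1 were highest in PEO-4, as both hosts were, but SKOV-3 had 24.5 ± 3.24 CPM of EPCAM without MIR200CHG. The 5 markers together summed to 620 to 1713 CPM in T1074, where both hosts were at 0.

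Of the 46 tested hosts, 4 were higher in PEO-4 and lower in SKOV-3 than in T1074. Over all genes tested, 36.3% were higher in PEO-4 and 34.5% lower in SKOV-3. The share of all genes with both calls was not counted, so the pattern cannot be called particular to hosts. MIR99AHG is described above. MIR34AHG (chr1:9148011-9198906, minus strand), host of the p53-induced miR-34a, was at 0.602, 0.733, 1.52 and 1.24 CPM in T1074 compared with 5.62, 5.55, 7.56 and 5.41 in PEO-4 and 0.0390, 0, 0 and 0 in SKOV-3. Every PEO-4 library was above all others, and 3 of 4 SKOV-3 libraries were at 0. It was 5.89-fold higher in PEO-4 than in T1074 (log2 fold change 2.52 ± 0.31 (SE), edgeR adjusted p = 4.44e-06), and T1074 held 107 times the SKOV-3 count after scaling (95% interval 29.2 to 893, counting error only, edgeR adjusted p = 3.18e-07), on 2 SKOV-3 counts that both came from replicate 1. Without that library SKOV-3 was at 0.

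MIR130AHG (chr11:57638024-57652790, plus strand) carries miR-130a in an intron. It had 0.569 ± 0.165 CPM in T1074, against 3.64 ± 0.789 in PEO-4 and 0.0455 ± 0.0193 in SKOV-3, without overlap (log2 fold change 2.67 ± 0.28 (SE), edgeR adjusted p = 6.46e-07 in PEO-4 and log2 fold change -3.57 ± 0.40 (SE), edgeR adjusted p = 2.21e-06 in SKOV-3). The SKOV-3 mean lay below the level of 3 counts per library, 0.0605 CPM, so the fall in SKOV-3 rests on few counts there. It shares 102 exon bases on its own strand with CLP1, an RNA kinase, which was lower in both cancer lines (-0.52 and -0.60 on the log2 scale), and 197 on the opposite strand with YPEL4, which was higher in PEO-4 (1.47) and lower in SKOV-3 (-1.77).

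MIR646HG (chr20:60087661-60653784, plus strand) was nearly confined to PEO-4. Its levels were 0, 0.137, 0 and 0.0746 CPM in the T1074 libraries, 8.08, 6.85, 6.66 and 8.37 in those of PEO-4 and 0, 0, 0.0214 and 0 in those of SKOV-3. Every PEO-4 library was far above every library of the other lines. The rise in PEO-4 over T1074 was called (log2 fold change 6.86 ± 0.46 (SE), edgeR adjusted p = 6.50e-09) and was larger, 7.84, without T1074 replicate 2. The lower level in SKOV-3 rests on 9 counts in T1074 and 1 in SKOV-3 (ratio 12.4, 95% interval 1.71 to 542, edgeR adjusted p = 0.0232), and it lost its call in 7 alternatives, with an adjusted p of 0.0503 to 0.152, among them those without T1074 replicate 2 (log2 fold change -2.03), T1074 replicate 4, SKOV-3 replicate 1, SKOV-3 replicate 2 and SKOV-3 replicate 4. Without SKOV-3 replicate 3, which held the single count, the fitted value was -4.44. MIR9-3HG (chr15:89361579-89424983, plus strand), host of a copy of the neural microRNA miR-9, was likewise highest in PEO-4, with 0, 0.229, 0 and 0.0497 CPM in T1074 compared with 1.08, 1.83, 1.35 and 0.995 in PEO-4 and 0, 0.0384, 0 and 0.0205 in SKOV-3 (log2 fold change 3.98 ± 0.63 (SE), edgeR adjusted p = 4.89e-05 in PEO-4, or 5.86 without T1074 replicate 2). T1074 and SKOV-3 each had 2 libraries at 0.

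MIR31HG was the single host called lower in PEO-4 and higher in SKOV-3 than in T1074. How many of all genes had this pattern was not counted. MIR31HG lies at chr9:21380073-21559891 on the minus strand and has the hairpin of miR-31, a regulator of invasion, in an intron. It was at 5.57, 5.29, 7.84 and 7.81 CPM in T1074, at 0 in all 4 PEO-4 libraries and at 22.0, 20.4, 18.4 and 18.0 CPM in SKOV-3. At the floor of 3 counts per library, PEO-4 was at least 91.5-fold below T1074 (edgeR adjusted p = 7.05e-10) and at least 272-fold below SKOV-3 (edgeR adjusted p = 1.51e-10). SKOV-3 exceeded T1074 by 2.97-fold (log2 fold change 1.57 ± 0.17 (SE), edgeR adjusted p = 6.36e-06).

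Its neighbours on chromosome 9 were KLHL9, a ubiquitin ligase adaptor 44669 bases away, and MTAP, a methionine salvage enzyme 242745 bases away. Both were at 0 in every PEO-4 library, with 59.1, 58.5, 56.3 and 55.3 and 39.3, 40.5, 38.3 and 41.5 CPM in SKOV-3. The cell cycle inhibitors CDKN2A and CDKN2B, 407861 and 443012 bases away, were at 0 in the 8 libraries of both cancer lines. In SKOV-3 the genes at 0 thus began beyond MTAP and MIR31HG was present, whereas in PEO-4 all 5 genes were at 0. Copy number was not measured.

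**Figure D5:**
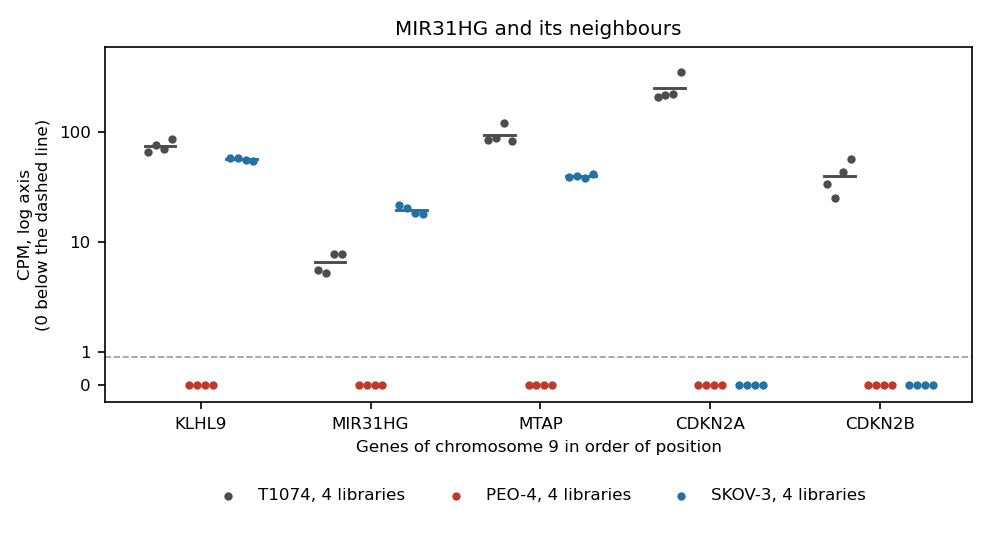
CPM on a log axis of MIR31HG and 4 neighbours in their order on chromosome 9, with 1 point per library and a line at each line mean; libraries at 0 are drawn below the dashed line. PEO-4 is at 0 for all 5 genes, and SKOV-3 is at 0 for CDKN2A and CDKN2B alone among them.

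Higher levels in SKOV-3 were led by MIR193BHG (chr16:14301389-14331067, plus strand), host of miR-193b and miR-365a, which are known in brown fat differentiation. It was at 0.753, 0.527, 0.171 and 0.846 CPM in T1074, against 1.02, 1.74, 1.78 and 0.995 in PEO-4 and 22.7, 26.2, 22.6 and 27.9 in SKOV-3. The lines did not overlap, SKOV-3 being 43.3-fold above T1074 (log2 fold change 5.48 ± 0.34 (SE), edgeR adjusted p = 4.03e-09) and PEO-4 2.41-fold above it (log2 fold change 1.32 ± 0.34 (SE), edgeR adjusted p = 0.00296). Transcripts spanning both hairpins held 77.0% ± 5.50 of its TPM in SKOV-3.

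MIR1915HG (chr10:21490272-21497260, minus strand) rose in both cancer lines, from 1.94 ± 0.676 CPM in T1074 up to 4.45 ± 0.696 in PEO-4 and 7.64 ± 0.586 in SKOV-3 (log2 fold change 1.18 ± 0.22 (SE), edgeR adjusted p = 0.000201 and log2 fold change 1.96 ± 0.22 (SE), edgeR adjusted p = 1.92e-06). MIR210HG (chr11:565657-568457, minus strand), host of the hypoxia-induced miR-210, was at 1.09 ± 0.366 CPM in the T1074 libraries, 0.918 ± 0.273 in those of PEO-4 and 3.00 ± 0.225 in those of SKOV-3, with every SKOV-3 library above the others (log2 fold change 1.48 ± 0.28 (SE), edgeR adjusted p = 0.000259). The pseudogene MIR3171HG (chr14:27258717-27845286, minus strand) was at 0 in the 8 libraries of T1074 and PEO-4 and at 2.904, 2.92, 2.50 and 2.25 CPM in SKOV-3, at least 28.8-fold above T1074 (edgeR adjusted p = 7.42e-07) and at least 36.5-fold above PEO-4 (edgeR adjusted p = 4.26e-07).

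Among the hosts that were lower in both cancer lines, MIR4435-2HG (chr2:111006015-111523376, minus strand) had the highest level. It was at 48.6, 39.8, 64.9 and 68.9 CPM in T1074 compared with 20.2, 24.9, 13.1 and 18.97 in PEO-4 and 27.8, 22.3, 25.0 and 20.3 in SKOV-3. Every T1074 library was above the cancer lines, which overlapped each other (log2 fold change -1.53 ± 0.20 (SE), edgeR adjusted p = 8.66e-06 in PEO-4 and log2 fold change -1.22 ± 0.20 (SE), edgeR adjusted p = 8.31e-05 in SKOV-3). On the TPM scale, which allows comparison between genes, it was the highest of the 84 hosts in each line, at 26.6 ± 5.42, 5.69 ± 1.45 and 11.02 ± 2.59. CYTOR, the near-identical copy of part of this gene elsewhere on chromosome 2, was at 41.8 ± 11.5, 12.9 ± 2.26 and 25.4 ± 3.00 CPM and lower in both cancer lines as well, and how reads were split between the copies is uncertain. BCL2L11, which shares 727 exon bases on the opposite strand, was higher in both (0.94 and 0.68 on the log2 scale).

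MIR22HG (chr17:1711447-1717174, minus strand), a stress-responsive lncRNA, was at 13.7, 17.8, 18.5 and 20.3 CPM in T1074, against 3.13, 5.98, 3.997 and 2.92 in PEO-4 and 11.6, 12.2, 10.2 and 10.8 in SKOV-3. The 3 lines did not overlap, with PEO-4 lowest (log2 fold change -2.13 ± 0.21 (SE), edgeR adjusted p = 3.25e-07 in PEO-4 and log2 fold change -0.65 ± 0.20 (SE), edgeR adjusted p = 0.00839 in SKOV-3). MIR924HG (chr18:39206917-39800322, minus strand) was at 9.73, 11.2, 9.92 and 8.95 CPM in the T1074 libraries, 1.55, 2.195, 2.28 and 1.43 in those of PEO-4 and 3.16, 2.17, 3.19 and 1.97 in those of SKOV-3, where all libraries of both cancer lines fell below T1074 (log2 fold change -2.42 ± 0.21 (SE), edgeR adjusted p = 1.24e-07 and log2 fold change -1.93 ± 0.21 (SE), edgeR adjusted p = 1.30e-06). Between the cancer lines it passed narrowly (log2 fold change -0.49 ± 0.21 (SE), edgeR adjusted p = 0.0476), and 13 of the 23 alternatives gave an adjusted p of 0.0506 to 0.297, among them those without T1074 replicate 1, without PEO-4 replicate 1, 2 or 4 and without SKOV-3 replicate 1 or 3.

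Other hosts of this group were at lower levels. MIR503HG (chrX:134543119-134546642, minus strand), whose miR-503 belongs to the cell cycle regulating miR-16 superfamily, was at 5.42, 3.02, 8.28 and 5.20 CPM in T1074 compared with 0.0586, 0.0241, 0.0645 and 0.0649 in PEO-4 and 0.0195, 0.0576, 0.0856 and 0.123 in SKOV-3, so that both cancer lines lay below every T1074 library (log2 fold change -6.61 ± 0.45 (SE), edgeR adjusted p = 8.32e-09 in PEO-4 and log2 fold change -6.22 ± 0.43 (SE), edgeR adjusted p = 1.23e-08 in SKOV-3). The PEO-4 mean lay below the level of 3 counts per library, 0.0724 CPM, so the size of the fall there rests on few counts. Transcripts that span miR-503 held 7.05% ± 3.74 of the TPM of MIR503HG in T1074. MIR155HG (chr21:25561810-25575168, plus strand), host of the inflammation-linked miR-155, was at 1.42 ± 0.435, 0.173 ± 0.0910 and 0.208 ± 0.134 CPM in T1074, PEO-4 and SKOV-3 (log2 fold change -3.05 ± 0.46 (SE), edgeR adjusted p = 3.17e-05 and log2 fold change -2.74 ± 0.44 (SE), edgeR adjusted p = 6.64e-05). The sum of the 3 leukocyte markers was 7.40 to 16.8 CPM in T1074, 0.645 to 1.49 in the PEO-4 libraries and 1.52 to 6.74 in those of SKOV-3, and CD68, the only one tested, was lower in PEO-4 (log2 fold change -3.25 ± 0.43 (SE), edgeR adjusted p = 8.86e-06) and in SKOV-3 (log2 fold change -1.12 ± 0.39 (SE), edgeR adjusted p = 0.0189). The part of these markers in the MIR155HG result was not tested. MIR137HG (chr1:97933474-98049871, minus strand), host of the neural miR-137, was at 3.16, 1.92, 3.99 and 3.13 CPM in T1074, against 0.0293, 0.0483, 0.0215 and 0 in PEO-4 and 2.05, 1.52, 1.56 and 1.60 in SKOV-3. It nearly vanished from PEO-4 (log2 fold change -6.83 ± 0.44 (SE), edgeR adjusted p = 4.18e-09) and was lower in SKOV-3 (log2 fold change -0.86 ± 0.26 (SE), edgeR adjusted p = 0.00972), although SKOV-3 replicate 1 lay above the lowest T1074 library. For MIR137HG too, the PEO-4 mean lay below the level of 3 counts per library, 0.0724 CPM, so the size of that fall rests on few counts. MIR137HG shares 494 exon bases on the same strand with DPYD, the pyrimidine catabolic enzyme, which was lower in PEO-4 (-1.76) and higher in SKOV-3 (1.74).

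MIR493HG (chr14:100836269-100955006, plus strand) lies in the imprinted DLK1-DIO3 domain and spans 8 hairpins. It was at 1.46, 0.458, 0.416 and 0.771 CPM in T1074 whereas all 8 cancer libraries were at 0, a difference of at least 10.7-fold from PEO-4 (edgeR adjusted p = 0.000108) and of at least 12.8-fold from SKOV-3 (edgeR adjusted p = 9.88e-05). MEG3 and MEG8, lncRNAs of the same domain that share 108 and 2257 exon bases with it on the same strand, had the same pattern, with 31.7 ± 10.4 and 18.4 ± 9.67 CPM in T1074, 1 count each over the 4 PEO-4 libraries and 0 in SKOV-3. How reads of the shared exons were split among these genes is uncertain, so their patterns are not independent of that of MIR493HG. The nearest tested coding neighbours were present in all lines, BEGAIN at 0.313 ± 0.295, 1.21 ± 0.250 and 1.16 ± 0.543 CPM and PPP2R5C, a phosphatase subunit, at 72.1 ± 7.14, 82.2 ± 2.00 and 108 ± 5.74.

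MIR181A1HG (chr1:198777861-198937471, minus strand) was at 3.17 ± 1.22 CPM in T1074 and fell to 1.58 ± 0.331 in PEO-4 and further, to 0.536 ± 0.241, in SKOV-3 (log2 fold change -0.98 ± 0.32 (SE), edgeR adjusted p = 0.0134 and log2 fold change -2.53 ± 0.35 (SE), edgeR adjusted p = 1.58e-05). The difference in PEO-4 was lost with an adjusted p of 0.0535 to 0.242 without T1074 replicate 1, PEO-4 replicate 2 or PEO-4 replicate 4 and with counts rebuilt from TPM. MIR29B2CHG (chr1:207760650-207879115, minus strand), host of miR-29 microRNAs that repress collagen messages, fell from 4.38 ± 1.02 CPM in T1074, with 2.42 ± 0.369 left in PEO-4 and 1.68 ± 0.276 in SKOV-3 (log2 fold change -0.85 ± 0.21 (SE), edgeR adjusted p = 0.00188 and log2 fold change -1.37 ± 0.21 (SE), edgeR adjusted p = 4.11e-05). It shares 797 exon bases on the opposite strand with CD46, a complement regulator that was lower in PEO-4 (-1.23) and gave 0.08 in SKOV-3. Of the 7 transcripts of MIR29B2CHG in the deposited tables, 0 span the miR-29b-2 or miR-29c hairpin, so the fall is that of transcripts that do not reach them.

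Of the remaining named hosts, MIR222HG (chrX:45745210-45770274, minus strand), host of miR-221 and miR-222, which repress the cell cycle inhibitor CDKN1B, had 4.26 ± 1.62 CPM in the T1074 libraries, 5.22 ± 1.46 in those of PEO-4 and 1.32 ± 0.134 in those of SKOV-3, and was lower in SKOV-3 than in T1074 (log2 fold change -1.68 ± 0.30 (SE), edgeR adjusted p = 0.000176). MIR4458HG (chr5:8450701-8486930, plus strand) fell in SKOV-3 as well, from 5.22 ± 1.37 to 2.91 ± 0.250 CPM (log2 fold change -0.85 ± 0.20 (SE), edgeR adjusted p = 0.00163). MIR600HG (chr9:123109494-123115477, minus strand) was higher in PEO-4, at 4.80 ± 1.23 CPM against 1.58 ± 0.509 in T1074 (log2 fold change 1.63 ± 0.26 (SE), edgeR adjusted p = 4.44e-05), and was not called in SKOV-3. It shares 254 exon bases on its own strand with STRBP, which was higher in both PEO-4 (0.95) and SKOV-3 (1.37). MIR4453HG (chr4:152536264-152539263, plus strand) was lower in PEO-4, at 1.56 ± 0.176 CPM against 3.00 ± 0.757 in T1074 (log2 fold change -0.95 ± 0.20 (SE), edgeR adjusted p = 0.000648). MIR3936HG (chr5:132311285-132370170, minus strand) was lower in SKOV-3, at 1.99 ± 0.221 CPM against 3.05 ± 0.479 (log2 fold change -0.61 ± 0.19 (SE), edgeR adjusted p = 0.0112), a call that was lost without a filter on low counts and with counts rebuilt from TPM. MIR1302-9HG (chr9:27657-30891, plus strand), a subtelomeric gene with near-identical copies on other chromosomes, and MIR762HG (chr16:30875222-30895220, plus strand) did not pass any test, with line means of 1.96 to 2.10 and 1.08 to 1.18 CPM.

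The other 12 tested hosts, all under 1 CPM in every line, were MIR181A2HG, MIR133A1HG, MIR497HG, MIR3677HG, MIR194-2HG, MIR5689HG, MIR302CHG, MIR663AHG, MIR4500HG, MIR219A2HG and 2 hosts on chromosome 8. Against T1074, 5 of them were lower (background 37.8%) and 2 higher (background 36.3%) in PEO-4. In SKOV-3, 3 were lower (background 34.5%) and 2 higher (background 33.3%). Of these hosts, 2 were picked after their values were seen because they carry relatives of microRNAs named above. MIR181A2HG, a second host of miR-181 microRNAs, was at 0.899 ± 0.330 CPM in T1074 and 0.447 ± 0.116 in PEO-4 (log2 fold change -0.97 ± 0.36 (SE), edgeR adjusted p = 0.0238). It was thus lower in PEO-4 like MIR181A1HG, whose own call there was lost in 4 alternatives. MIR497HG, host of the miR-16 relatives miR-195 and miR-497, was lower in SKOV-3 at 0.117 ± 0.0513 CPM, against 0.492 ± 0.2404 in T1074 (log2 fold change -2.04 ± 0.45 (SE), edgeR adjusted p = 0.00106).

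Without overlap between libraries, 14 of the 46 hosts were above T1074 in PEO-4 (background 33.2%) and 14 below (background 33.4%). In SKOV-3, 9 were above (background 30.5%) and 17 below (background 29.8%). In PEO-4 against SKOV-3, 20 were above (background 38.4%) and 14 below (background 37.2%).

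The hairpins themselves were nearly invisible in these libraries. Of 109 hairpins with a row of their own in the tables, 108 were at 0 in all 12 libraries, and MIR27A had 1 count in 1 PEO-4 library. The levels above are therefore those of the host transcripts, and mature microRNAs were not measured.

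The genes that process microRNAs were measured well. Of 27 listed genes, 26 were tested. In PEO-4 against T1074, 10 were higher (38.5%, background 36.3%), 6 lower (23.1%, background 37.8%) and 10 not called. In SKOV-3, 12 were higher (46.2%, background 33.3%), 8 lower (30.8%, background 34.5%) and 6 not called. DROSHA, the nuclear RNase, was lower in both cancer lines, at 107, 108, 79.8 and 93.5 CPM in T1074 compared with 35.6, 32.9, 30.7 and 34.6 in PEO-4 and 27.8, 26.9, 29.1 and 25.2 in SKOV-3 (log2 fold change -1.53 ± 0.11 (SE), edgeR adjusted p = 1.23e-08 and log2 fold change -1.83 ± 0.11 (SE), edgeR adjusted p = 3.23e-09). Neither cancer line overlapped T1074. Its partner DGCR8 was at 40.8 ± 10.9 CPM in T1074, against 28.8 ± 2.45 in PEO-4 and 87.6 ± 6.53 in SKOV-3, lower in PEO-4 (log2 fold change -0.50 ± 0.16 (SE), edgeR adjusted p = 0.00983) and higher in SKOV-3 (log2 fold change 1.10 ± 0.16 (SE), edgeR adjusted p = 2.13e-05). XPO5 was not called in either line, at 84.0 ± 17.4, 96.4 ± 10.4 and 85.8 ± 2.67 CPM.

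DICER1, the cytoplasmic RNase, was higher in both, at 40.9 ± 7.21, 54.8 ± 4.70 and 91.3 ± 4.40 CPM in T1074, PEO-4 and SKOV-3 (log2 fold change 0.42 ± 0.12 (SE), edgeR adjusted p = 0.00533 and log2 fold change 1.16 ± 0.12 (SE), edgeR adjusted p = 9.82e-07). AGO2, the slicing Argonaute, was at 99.2, 83.4, 114 and 106 CPM in the T1074 libraries, 459, 398, 359 and 468 in those of PEO-4 and 135, 148, 134 and 143 in those of SKOV-3. All cancer libraries were above T1074, and PEO-4 was far above both (log2 fold change 2.06 ± 0.12 (SE), edgeR adjusted p = 1.98e-09 in PEO-4 and log2 fold change 0.47 ± 0.12 (SE), edgeR adjusted p = 0.00262 in SKOV-3). Of the 7 Argonaute and GW182 genes, 5 were higher and 2 not called in PEO-4, and 6 were higher and 1 lower in SKOV-3, with medians of 0.45 and 0.47 on the log2 scale. Of the 8 Microprocessor genes and cofactors, 4 were lower and 4 not called in PEO-4, and 5 were lower and 1 higher in SKOV-3. Of 6 tested genes of tailing and turnover, such as the uridylyl transferases TUT4 and TUT7, 4 were higher and 2 lower in PEO-4, and 3 were higher and 1 lower in SKOV-3. Of the 3 Dicer complex genes, 1 was higher in PEO-4, and 2 were higher and 1 lower in SKOV-3, and both export genes were not called in either line. Over all genes tested, 36.3% were higher and 37.8% lower in PEO-4, and 33.3% higher and 34.5% lower in SKOV-3.

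Hosts with other names were compared from a list. Of 28 tested protein-coding hosts, 7 were higher and 14 lower in PEO-4 and 10 higher and 13 lower in SKOV-3, with median log2 fold changes of -0.37 and -0.25. Of 6 tested noncoding hosts of other names, 1 was higher and 3 lower in PEO-4, and 5 were lower in SKOV-3, beside the same backgrounds.

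The share of each host's TPM in its leading transcript was compared between lines by the exact permutation test (two-sided, 4 against 4, smallest possible p 0.0286) for 23 named hosts. None of 63 comparisons passed after Benjamini-Hochberg adjustment, the smallest adjusted p being 0.112, and 16 had an unadjusted p under 0.05. With a smallest possible p of 0.0286 over 63 comparisons, no call can arise unless most comparisons reach that p. The lack of calls therefore does not show that the shares were alike. Shifts in the mean share were seen in MIRLET7A1HG, as given above, in MIR4435-2HG, where the leading transcript of 514 bases held 56.8% ± 3.97 of the TPM in T1074 compared with 30.7% ± 10.0 in PEO-4 and 73.4% ± 4.35 in SKOV-3, and in MIR210HG, at 14.2% ± 13.4 in PEO-4 and 58.1% ± 1.78 in SKOV-3.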

How the data were processed

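Total RNA of 12 libraries, 4 per cell line, was sequenced in pairs by the authors after rRNA depletion with a directional kit. The submitters' processing notes name bcl2fastq 2.20.0.422, Trimmomatic 0.39, STAR 2.7.3a, RSEM 1.3.1 and the build hg38, and the strand setting of RSEM is not given in the sources used here. The deposited tables hold the expected counts and the TPM that the authors' RSEM run gave for each transcript. Expected counts were summed per gene and rounded to whole numbers, and 61415 of 61533 gene IDs matched GENCODE 44, which gave symbols, classes and positions (118 did not).

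All 12 libraries entered 1 fit in edgeR 4.0.16 (R 4.3.3) with TMM scaling, filterByExpr and the quasi-likelihood test, with Benjamini-Hochberg adjustment over 19898 genes and a threshold of 0.05. The script was tested on simulated data. CPM is the rounded count over the library total multiplied by its TMM factor. Bounds against a line at 0 use a floor of 3 counts per library, and intervals at 95% (exact binomial) and floors cover counting error only. Among 18 replicate pairs the lowest chi-square per degree of freedom was 23.2, so no library was taken as a duplicate.

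Named hosts were those tested with a mean of at least 1 CPM in 1 line or at 0 in all libraries of a line, and the 12 with the highest line mean, besides others of low counts, are given by library. The members and the gene lists were chosen with earlier results of these data known. MCM7, the markers and the genes that overlap a host were added after values were seen. Alternatives were other scalings, filters and tools (limma 3.58.1, DESeq2 1.42.0), a replicate block, counts rebuilt from TPM and transcript length, and each library left out.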

Additional observations from a re-analysis of the deposited data

Results flagged for a closer look

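In 5 host genes 1 cancer line was called above and the other below T1074. That choice nearly fixes a difference between the cancer lines, so its values are a description. How common such opposite calls were over all genes was not counted. On the log2 scale of PEO-4 minus SKOV-3, MIR31HG was at -12.71, a fitted value that depends on the prior count because PEO-4 was at 0. MIR99AHG was at 3.62 and MIR130AHG at 6.24, both on counts in all 12 libraries, though those of MIR130AHG in SKOV-3 averaged under 3 per library. MIR646HG was at 9.88 and MIR34AHG at 8.86, both on few counts in SKOV-3.

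Of 94 groups of 4 libraries examined, 10 held a library far from the other libraries of its line, where chance gives about 1 in 20. In PEO-4, replicate 3 was highest for MIR205HG at 23.8 CPM, for MIR34AHG at 7.56 CPM and for MIR4453HG at 1.83 CPM, and replicate 2 was lowest for MIR503HG at 0.0241 CPM. In SKOV-3, replicate 1 was highest for MIR137HG at 2.05 CPM and for MIR34AHG at 0.0390 CPM, replicate 3 was highest for MIR646HG at 0.0214 CPM, and replicate 2 was lowest for MIR205HG at 0 CPM. The last 3 of these rest on 2 counts or fewer. MIR503HG in PEO-4 replicate 2 also lay below the level of 3 counts per library, 0.0724 CPM. The rate of 1 in 20 need not hold at such low counts. In T1074, replicate 2 was lowest for MIR222HG at 1.86 CPM and replicate 3 for MIR210HG at 0.539 CPM.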

How the results depend on the processing

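Of 99 named values, 75 were called, and 67 of these stayed called in every one of the 23 alternatives run for single hosts in which they were tested, of which 6 were not tested under the filter of at least 1 CPM. Of the 75, 69 had an adjusted p under 0.01 and 59 changed by at least 1 on the log2 scale. Some values not called passed in at least 1 alternative. Against T1074 in SKOV-3 these were MIR23AHG (10 alternatives), MIR9-3HG and MIRLET7BHG (3 each) and MIR600HG (1). In PEO-4 they were MIR3936HG (3), MIR100HG (2), MIR210HG (1) and MIRLET7IHG (1). Between the cancer lines MIR4435-2HG passed in 1, with counts rebuilt from TPM (log2 fold change -0.70, edgeR adjusted p = 0.00451). The number of hosts lower in PEO-4 than in T1074 was 16 and came to 10 with a filter of at least 1 CPM in 4 libraries, which tests fewer genes. With 1 library left out, 39 to 42 hosts differed among the lines, 14 to 16 were higher and 13 to 19 lower in PEO-4 than in T1074, 9 to 10 higher and 19 to 23 lower in SKOV-3, and 18 to 21 higher and 14 to 15 lower in PEO-4 than in SKOV-3. DESeq2 gave 41, 15 and 14, 9 and 21, and 20 and 15. Scaling by library size alone moved the median of all genes by -0.16 in PEO-4 and by -0.20 in SKOV-3 on the log2 scale, and scaling on protein-coding genes by 0.12 in PEO-4 against T1074 and by 0.14 against SKOV-3.

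Direction turned in small differences and, with counts rebuilt from TPM, in 3 called ones. For MIR762HG, library size alone gave -0.11 in PEO-4 and -0.047 in SKOV-3 against T1074, and protein-coding scaling gave 0.030 for PEO-4 against SKOV-3. For MIR1302-9HG, PEO-4 against SKOV-3 was 0.037 with library size alone, 0.016 with RLE factors, 0.016 in DESeq2, 0.13 with protein-coding scaling and 0.079 with the CPM filter, PEO-4 against T1074 was 0.013 with protein-coding scaling and 0.0072 in the fit of 8 libraries, and SKOV-3 against T1074 was 0.011 without a filter. Counts rebuilt from TPM gave -0.11 for MIRLET7BHG and 0.023 for MIR3936HG in PEO-4, -0.18 for MIR17HG and 0.52 for MIRLET7A1HG in SKOV-3, and -0.24 for MIRLET7A1HG in PEO-4 against SKOV-3, where both MIRLET7A1HG values and MIRLET7BHG in PEO-4 had been called in the other direction. Without 1 library, MIR762HG in PEO-4 ranged from -0.10 to 0.17, MIR1302-9HG from -0.24 to 0.13 in PEO-4, from -0.21 to 0.038 in SKOV-3 and from -0.10 to 0.16 between the cancer lines, MIR4453HG in SKOV-3 from -0.18 to 0.10 and MIR155HG between the cancer lines from -0.60 to 0.10. The cause was not tested.

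The replicate numbers did not pair the libraries. Deviations of libraries with the same number correlated at -0.079 to 0.069, with 0 of 12 pairs over 0.1. With a replicate block, 42 hosts differed, 15 were higher and 16 lower in PEO-4, 10 higher and 20 lower in SKOV-3, and 20 higher and 15 lower in PEO-4 than in SKOV-3.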
